A study of Mus musculus with 6 samples.

Results

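Chemokine genes, interleukin genes and the genes of their receptors were examined in whole gastrocnemius/plantaris (GP) muscle. Members were taken by symbol, as every gene of the count tables whose name begins with Ccl, Cxcl, Ccr or Cxcr and a digit, with Cx3c, or with Il and a digit. The rule found 139 of the 24421 genes listed. Of these, 57 had 10 or more counts in 3 or more libraries and were used for single-gene statements, 59 had fewer counts, and 23 had no count in any library. The libraries were made from 3 mice labelled control (Ctrl), which carry the floxed Net39 allele on both chromosomes (Net39 fl/fl) without Cre, and 3 mice labelled cKO (HSACreERT2;Net39 fl/fl), in which a tamoxifen-inducible Cre is driven by the human skeletal actin promoter in muscle fibres but not in satellite cells. All 6 were male mice and were sampled at 5 months of age, 3 months after the tamoxifen that both groups received. Per the paper, the floxed allele was made in B6C3F1 zygotes, and the founders were then bred to C57BL/6N mice. Because Cre acts in the fibre, immune, vascular and connective tissue cells of the same piece of muscle keep an intact Net39 gene in either group.

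Net39 is listed under its older symbol Ppapdc3, and its counts go against the labels. It had 310, 321 and 217 counts in libraries labelled Ctrl 1, 2 and 3, compared with 5365, 4340 and 6080 counts in libraries labelled cKO 1, 2 and 3 (log2 fold change 4.22, standard error 0.17, edgeR adjusted p = 0.000161). The labels were kept, so each direction below is stated for the labelled group, and the 3 libraries labelled Ctrl are the ones with low Net39. Total counts were 33860001 to 38201728 in libraries labelled Ctrl and 39191239 to 48839910 in libraries labelled cKO. Markers of skeletal muscle fibres such as Acta1 and Ckm were abundant in each library, whose 8-gene list summed to 93299 to 118305 CPM in libraries labelled Ctrl and 149826 to 198201 CPM in libraries labelled cKO. CPM stands for counts per 1e6 counts of a library after edgeR's TMM scaling. Log2 fold changes are labelled cKO over labelled Ctrl, so that a negative value means a higher level in libraries labelled Ctrl. P-values measure the spread between mice, and in a single gene the exact two-sided permutation test for 3 mice against 3 cannot go below 0.1.

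Chemokines are small secreted proteins, named by the spacing of their first cysteines (CC, CXC or CX3C), that attract leukocytes through receptors coupled to G proteins. Interleukins act through receptors built from several chains, some of which are shared by many ligands, and signal through JAK kinases and STAT factors or, for the families of IL-1 and IL-17, through adaptors that activate NF-kappaB. In muscle these genes are known to be expressed by resident macrophages, endothelial cells and fibro-adipogenic progenitors as well as by the fibres themselves, and they are known for guiding leukocytes into injured muscle and for exchange between muscle and other tissues.

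At an adjusted p under 0.05, 15 of the 57 genes differed between the labelled groups. They were Cx3cl1, Cxcl10, Ccl6, Ccl9, Il17d, Cxcr6, Il20rb, Il13ra1, Il2rg, Il11ra1 and Il4ra, all higher in libraries labelled Ctrl, and Il17re, Il12a, Ccl25 and Il12rb2, which were higher in libraries labelled cKO. The share of all 14180 genes tested that passed was 24.4%, so passing was about as common among the chemokine and interleukin genes (26.3%) as in the muscle transcriptome. By direction, 11 of the 57 stood against 11.8% of all genes for libraries labelled Ctrl, and 4 of the 57 against 12.6% for libraries labelled cKO. When a fold change over 2 was also asked for, 9 of the 57 genes passed against 6.05% of all genes tested, and 6 genes were higher in libraries labelled Ctrl (3.92% of all genes) and 3 in libraries labelled cKO (2.13% of all genes). The median log2 fold change was -0.32 over the 57 genes and -0.02 over all genes tested. Over the 116 genes of the family in the fits with no filter and with DESeq2, it was -0.18 and -0.21. Dividing by total counts in place of TMM factors moved the median of all genes to -0.27 and that of the 57 to -0.58, and then 23 of the 57 were higher in libraries labelled Ctrl (28.7% of all genes) and 3 in libraries labelled cKO (4.75% of all genes). Of the 57, 6 reached the count limit through libraries labelled Ctrl and 1 through libraries labelled cKO, among them the differing genes Cxcl10, Cxcr6 and Il17re, so that the counts and the median describe the genes that passed the limit and not the whole family. With 1 library left out, the genes called higher in libraries labelled Ctrl numbered 6 without cKO 1, 7 without Ctrl 1 or cKO 3 and 8 without Ctrl 2. Not all of those called without cKO 3 were among the 11. The genes called higher in libraries labelled cKO numbered 1 without cKO 1 or cKO 3 and 0 in edgeR without Ctrl 1 or Ctrl 2. In the fits without Ctrl 1 or Ctrl 2, 4 and 6 genes had an unadjusted p under 0.05 in that direction. Calls over all genes became fewer as well, for example 5.63% and 5.33% in the 2 directions without Ctrl 1.

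**Figure D1:**
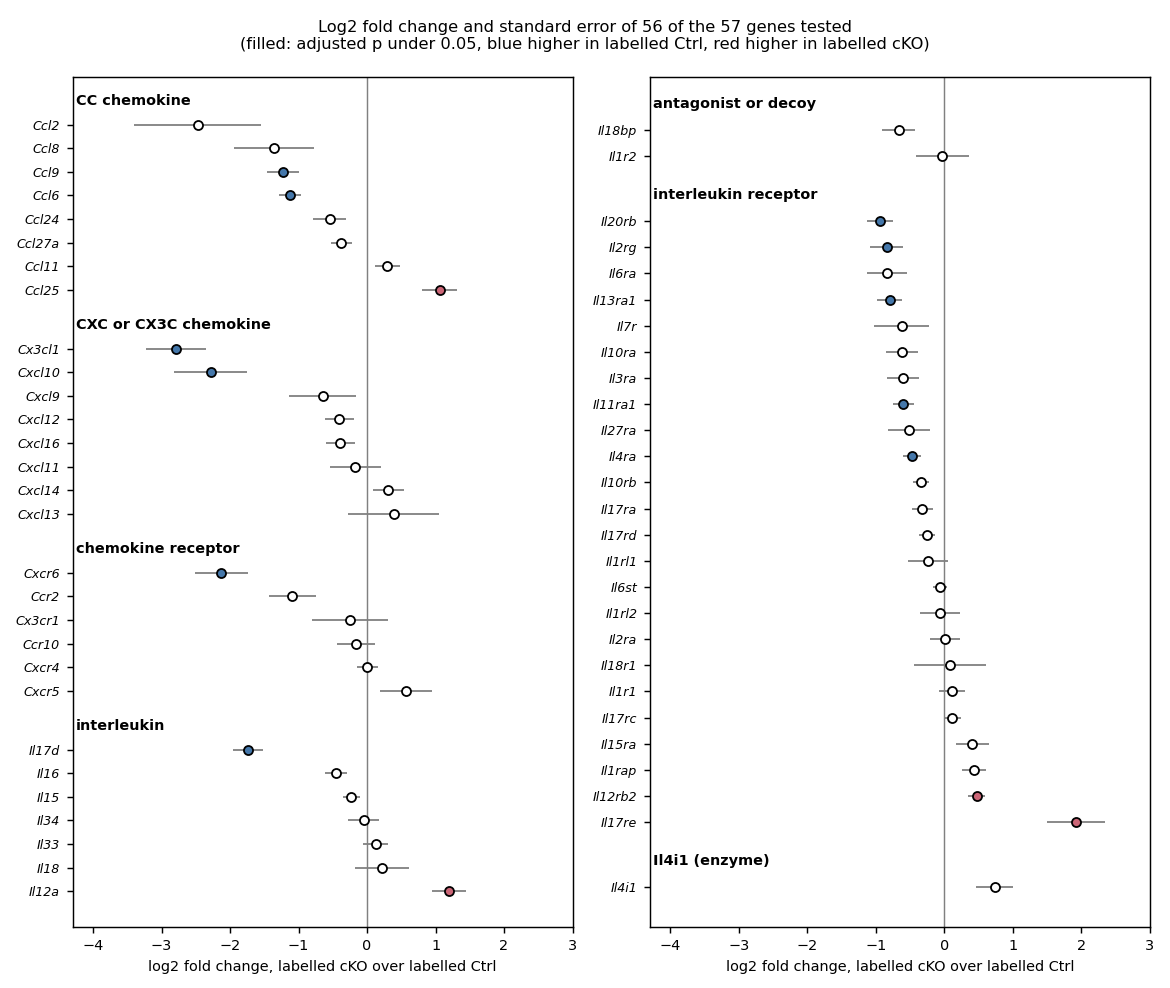
Log2 fold change (labelled cKO over labelled Ctrl, horizontal axis) with its standard error for 56 of the 57 genes, grouped by role on the vertical axis. Filled points passed an adjusted p of 0.05, 11 of them higher in libraries labelled Ctrl (blue) and 4 in libraries labelled cKO (red), and the values run from -2.79 for Cx3cl1 to 1.92 for Il17re.

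Levels per length placed a few homeostatic genes far above the rest. Per kilobase of exon, the mean of libraries labelled Ctrl was 31.2 CPM for Cxcl14, 18.7 for Cxcl12, 18.3 for Il6st, 12.9 for Ccl11 and 12.8 for Il11ra1, while the mean was 7.30 for Ccl6, 5.86 for Il17d and 4.38 for Cx3cl1. Cxcl12 is the retention signal for cells that carry Cxcr4, Cxcl14 is a chemokine made constitutively by many tissues, Ccl11 (eotaxin) attracts eosinophils, and Il6st encodes gp130, the signalling chain that the receptors for IL-6, IL-11 and related ligands share. Together Cxcl12, Cxcl14 and Il6st made up 54.7% to 64.3% of the summed CPM of all 139 genes in a library. None of these 3 passed the test. Il6st had 194, 191 and 224 CPM in libraries labelled Ctrl and 191, 211 and 180 CPM in libraries labelled cKO (log2 fold change -0.07, standard error 0.10, edgeR adjusted p = 0.666), and the groups overlapped. Summed over all 139 genes, CPM was 716 ± 18.4 (SD, n = 3) in libraries labelled Ctrl, against 614 ± 31.0 (SD, n = 3) in libraries labelled cKO. Without the 3 abundant genes it was 303 ± 11.6 (SD, n = 3) and 233 ± 1.92 (SD, n = 3).

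Among the CC chemokines, 8 of 24 genes had enough counts, of which 2 were higher in libraries labelled Ctrl, 1 was higher in libraries labelled cKO and 5 did not pass. Over all genes tested, 11.8% and 12.6% passed in these directions. Ccl6 and Ccl9 are neighbouring rodent genes for chemokines that attract myeloid cells through CCR1, at positions 83587882 to 83593087 and 83572919 to 83578636 of chromosome 11 (GRCm38, the assembly also called mm10). Ccl6 had 15.7, 10.5 and 13.2 CPM in libraries labelled Ctrl 1, 2 and 3 and 6.41, 6.13 and 5.48 CPM in libraries labelled cKO 1, 2 and 3. The lowest library labelled Ctrl lay above the highest labelled cKO, a 2.18-fold difference (log2 fold change -1.13, standard error 0.16, edgeR adjusted p = 0.00509). Ccl9 had 12.0, 7.02 and 9.60 CPM against 3.36, 3.79 and 5.02 CPM. Here too the groups did not overlap (log2 fold change -1.23, standard error 0.23, edgeR adjusted p = 0.0118), and both genes passed in each of the 6 fits with 1 library left out. Such a separation of the groups was seen in 26 of the 57 genes, 20 with libraries labelled Ctrl above and 6 with libraries labelled cKO above, and in 43.9% of all genes tested, 21.9% and 22.0% in these directions. Ccr1, their receptor gene, was under the count limit.

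Ccl25, which attracts thymocytes and gut-homing lymphocytes through CCR9, went the other way. It had 1.48, 1.88 and 2.46 CPM in libraries labelled Ctrl and 4.60, 2.96 and 4.57 CPM in libraries labelled cKO (log2 fold change 1.06, standard error 0.26, edgeR adjusted p = 0.0257). The groups did not overlap, but the call was lost without Ctrl 1, Ctrl 2, cKO 1 or cKO 3, with edgeR adjusted p values of 0.0833, 0.0791, 0.0831 and 0.0870. Its receptor gene Ccr9 was under the count limit. A further set of CC chemokine genes lies on chromosome 11 between 82035571 and 82116799, with Ccl2, Ccl11 and Ccl8, and of these Ccl2 and Ccl8 were chosen for description after their values were seen. Ccl2, the main attractant of monocytes that carry Ccr2, had 25, 12 and 102 counts in libraries labelled Ctrl, compared with 2, 13 and 11 counts in libraries labelled cKO. One library, Ctrl 3, stood far above the other 5, and the groups overlapped. The log2 fold change of Ccl2 was -2.47 with a standard error of 0.93 (edgeR adjusted p = 0.0942), and it was -1.07 without Ctrl 3, whereas DESeq2 called the gene (adjusted p = 0.0171). Ccl8, another ligand of CCR2, was also highest in Ctrl 3, with 15, 18 and 44 counts against 4, 12 and 15 counts (log2 fold change -1.35, standard error 0.58, edgeR adjusted p = 0.133), and its log2 fold change was -0.65 without that library. Ccl11 had 12.5, 14.4 and 15.1 CPM in libraries labelled Ctrl and 14.7, 14.5 and 22.3 CPM in libraries labelled cKO, which overlapped (log2 fold change 0.30, standard error 0.18, edgeR adjusted p = 0.268). Ccl24, a second eotaxin gene that was also picked after its values were seen, had a log2 fold change of -0.55 (standard error 0.24, edgeR adjusted p = 0.141) and passed only where total counts replaced TMM factors (-0.80, edgeR adjusted p = 0.0488).

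Cx3cl1 showed the widest difference of the family. It encodes fractalkine, the only CX3C chemokine, which is made as a membrane protein that holds leukocytes on the cell surface and is shed as a soluble attractant. The gene lies on chromosome 8 of GRCm38 from 94772009 to 94782427. Cx3cl1 had 557, 573 and 863 counts in libraries labelled Ctrl 1, 2 and 3, compared with 74, 162 and 53 counts in libraries labelled cKO 1, 2 and 3, which is 14.2, 13.8 and 23.6 CPM against 2.09, 4.21 and 1.20 CPM. Every library labelled Ctrl stood clearly above the highest library labelled cKO. The difference was 6.91-fold (log2 fold change -2.79, standard error 0.44, edgeR adjusted p = 0.00684) and passed with each library left out, from -3.41 to -2.46. Within libraries labelled cKO, Cx3cl1 was highest in cKO 2 and lowest in cKO 3. The summed CPM of 6 slow-fibre genes, Myh7 among them, had the same order there, with 1518, 2869 and 287 CPM, against 12296, 7399 and 7692 CPM in libraries labelled Ctrl. Among libraries labelled Ctrl the order differed, since Cx3cl1 was highest in Ctrl 3 and the slow-fibre sum in Ctrl 1. Of these 6 slow-fibre genes 3 passed the test, each higher in libraries labelled Ctrl (11.8% of all genes). All 6 had an unadjusted p under 0.05 by edgeR, beside 38.8% of all genes, and log2 fold changes from -2.75 to -2.30. Their part in the Cx3cl1 result was not tested. The receptor gene Cx3cr1 was low and did not follow, with 0.153, 0.314 and 0.547 CPM in libraries labelled Ctrl and 0.254, 0.441 and 0.159 CPM in libraries labelled cKO (log2 fold change -0.25, standard error 0.56, edgeR adjusted p = 0.775), and its sign turned without Ctrl 3 (0.26) or cKO 3 (0.046).

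Cxcl9, Cxcl10 and Cxcl11 lie side by side on chromosome 5 and encode the interferon-induced ligands of CXCR3, whose gene was under the count limit. Cxcl10 had 73, 29 and 87 counts in libraries labelled Ctrl, compared with 6, 14 and 20 counts in libraries labelled cKO, or 1.86, 0.700 and 2.38 CPM against 0.169, 0.364 and 0.454 CPM. The groups did not overlap (log2 fold change -2.29, standard error 0.53, edgeR adjusted p = 0.0229). Cxcl10 reached the count limit through libraries labelled Ctrl, since cKO 1 lay under 10 counts. The call was lost without Ctrl 1, Ctrl 3, cKO 1 or cKO 3, with edgeR adjusted p values from 0.0521 to 0.0735, while the log2 fold change in those fits was -2.61 to -1.92. The other two, described after their values were seen, overlapped between the groups. Cxcl9 had 0.792, 0.362 and 1.504 CPM against 0.621, 0.493 and 0.568 CPM (log2 fold change -0.65, standard error 0.49, edgeR adjusted p = 0.364). Cxcl11 had 1.17, 1.35 and 1.31 CPM against 0.677, 1.84 and 0.886 CPM, a log2 fold change of -0.17 (standard error 0.37, edgeR adjusted p = 0.767) that became 0.074 without cKO 1. The Cxcl11 value carries a further limit, since 41.7% of its exon bases are shared with the antisense gene Gm2673 and the use of strand in counting is not given in the sources used here.

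Short stretches of the Cxcl10 and Ccl9 promoters are shown because chemokine genes are textbook targets of NF-kappaB and of interferon-regulated factors, which bind the kappaB motif and the interferon-stimulated response element (ISRE). Windows from 250 bases before to 50 bases after the gene start were taken from RefSeq on GRCm38.p6, and 43 of the 57 genes were found there by symbol. The kappaB consensus was searched by its usual degenerate form and the ISRE as GAAANNGAAA, both on either strand. The 10 bases of the match are in capitals, the flanks are in lower case, and each sequence is written 5′ to 3′ on the strand of the gene, which is the minus strand for both. Positions count from the gene start, which is 0, with negative numbers upstream, and the ISRE match of Cxcl10 overlaps neither of its kappaB matches.
Cxcl10 ISRE, -213 to -204, chr5:92349083-92349112: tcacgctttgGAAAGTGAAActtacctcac
Cxcl10 kappaB, -159 to -150, chr5:92349029-92349058: agaggggagaGGGAAATTCCaagttcatgg
Cxcl10 kappaB, -103 to -94, chr5:92348973-92349002: cggtttacagGGGACTTCCCtcgggttgcg
Ccl9 kappaB on the opposite strand, -35 to -26, chr11:83578652-83578681: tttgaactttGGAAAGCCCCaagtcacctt
A kappaB match was present in 8 of the 43 genes (18.6%) and in 6.39% of the 10688 genes tested that had a promoter window, while it was found in 4.51% of all 32851 windows. Among the genes that passed the test, it was found in 3 of the 11 higher in libraries labelled Ctrl (Cxcl10, Ccl9 and Il4ra), in 1 of the 4 higher in libraries labelled cKO (Il12rb2) and in 4 of the 28 that did not pass. An ISRE match was present in 3 of the 43 genes (Cxcl10, Cxcl14 and Il1rap; 6.98%), in 3.65% of the genes tested that had a window and in 3.44% of all windows. A match says only that these letters stand in the window, and its occupancy was not measured.

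The other CXC chemokines did not pass. Cxcl12 had 134, 160 and 164 CPM in libraries labelled Ctrl and 97.4, 158 and 91.6 CPM in libraries labelled cKO. Only cKO 2 lay within the range of libraries labelled Ctrl, so the log2 fold change of -0.40 (standard error 0.21, edgeR adjusted p = 0.202) became -0.71 without that library (edgeR adjusted p = 0.00871). Its receptor gene Cxcr4 had 4.11, 3.14 and 3.61 CPM against 3.58, 3.38 and 3.91 CPM, and its mean was 3.62 CPM in both groups, although with total counts its log2 fold change was -0.26. Cxcl14 had 53.8, 68.7 and 48.5 CPM in libraries labelled Ctrl and 73.1, 49.0 and 90.2 CPM in libraries labelled cKO, with overlapping groups (log2 fold change 0.31, standard error 0.23, edgeR adjusted p = 0.348).

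Of the 18 chemokine receptor genes 7 had enough counts, and Cxcr6 alone passed the test. That is 14.3% of the 7, beside 24.4% of all genes tested. CXCR6 is carried by activated T cells and natural killer T cells and binds CXCL16. Cxcr6 had 10, 13 and 13 counts in libraries labelled Ctrl, compared with 2, 3 and 3 counts in libraries labelled cKO, so the groups did not overlap, and it met the count limit through libraries labelled Ctrl alone. Summed over each group, the level was 4.53 times as high in libraries labelled Ctrl, with an exact 95% interval of 2.07 to 11.3 that covers counting error only (log2 fold change -2.13, standard error 0.39, edgeR adjusted p = 0.0104). The ligand gene Cxcl16 had 2.55, 1.95 and 2.49 CPM against 1.41, 2.00 and 1.91 CPM, with overlapping groups (log2 fold change -0.39, standard error 0.21, edgeR adjusted p = 0.211), and 18.3% of its exon bases are shared with Zmynd15 on the other strand. Ccr2, the receptor of inflammatory monocytes, had 2.86, 3.50 and 5.31 CPM in libraries labelled Ctrl and 1.07, 2.29 and 2.09 CPM in libraries labelled cKO. These groups did not overlap either, but Ccr2 lay just outside the threshold (log2 fold change -1.09, standard error 0.34, edgeR adjusted p = 0.0548), and it passed with total counts (-1.33, edgeR adjusted p = 0.0287) and in DESeq2 (adjusted p = 0.0115).

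Marker lists gave the levels of leukocytes in the same libraries. Of 14 macrophage and monocyte markers, each detected in the muscle, 9 were higher in libraries labelled Ctrl and 0 in libraries labelled cKO by edgeR, beside 11.8% and 12.6% of all genes, and 11 of the 14 had an unadjusted p under 0.05, beside 38.8% of all genes. Their summed level was 242 to 262 CPM in libraries labelled Ctrl and 120 to 153 CPM in libraries labelled cKO, with a median log2 fold change of -0.83 over values from -1.12 for Cd68 to 0.38 for Ly6c2. Those that passed ran from Cd68 and Lyz2 (-1.07) to Csf1r (-0.64) and Mrc1 (-0.54). A list of 7 genes shared by leukocytes summed to 35.9 to 51.7 CPM against 19.6 to 30.7 CPM, and 2 of the 7, Laptm5 and Tyrobp, passed. Il17re, Il12a, Ccl25 and Il12rb2, the called genes higher in libraries labelled cKO, differed in the other direction. Whether leukocytes express them in this muscle was not tested. Markers of T cells and natural killer cells were near the detection limit, with 1.21 to 1.31 CPM against 0.536 to 1.27 CPM over 11 genes, of which Cd3d, Cd8a, Cd8b1 and Ncr1 had at most 3 counts in each library. B cell genes (0.492 to 0.919 against 0.341 to 0.519 CPM over 6 genes) and neutrophil genes (0.153 to 0.219 against 0.141 to 0.39 CPM over 5 genes, 1 of them with no count) were lower still. Mast cell genes summed to 18.7 to 24.4 CPM against 12.5 to 16.7 CPM, and dendritic cell genes to 10.6 to 14.8 CPM against 8.84 to 9.43 CPM. Endothelial genes (390 to 403 against 350 to 389 CPM, 0 of 6 called by edgeR, 1 with an unadjusted p under 0.05) differed less. Of 4 satellite cell genes, only Cdh15 passed, higher in libraries labelled cKO (log2 fold change 0.52). It gave most of the summed level (19.3 to 20.4 against 24.4 to 30.5 CPM). Pax7 (-0.10), Myf5 (0.58) and Calcr (0.47) overlapped between the groups and did not pass. Of 6 genes of fibro-adipogenic progenitors, Ly6a (log2 fold change -1.13) and Pi16 (-0.86) were higher in libraries labelled Ctrl, while their summed level, to which Dcn gave the most, overlapped at 741 to 770 against 665 to 851 CPM. In whole muscle, fewer cells of a type cannot be told apart from less RNA per cell, and the part of leukocyte number in the chemokine values was not tested.

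**Figure D2:**
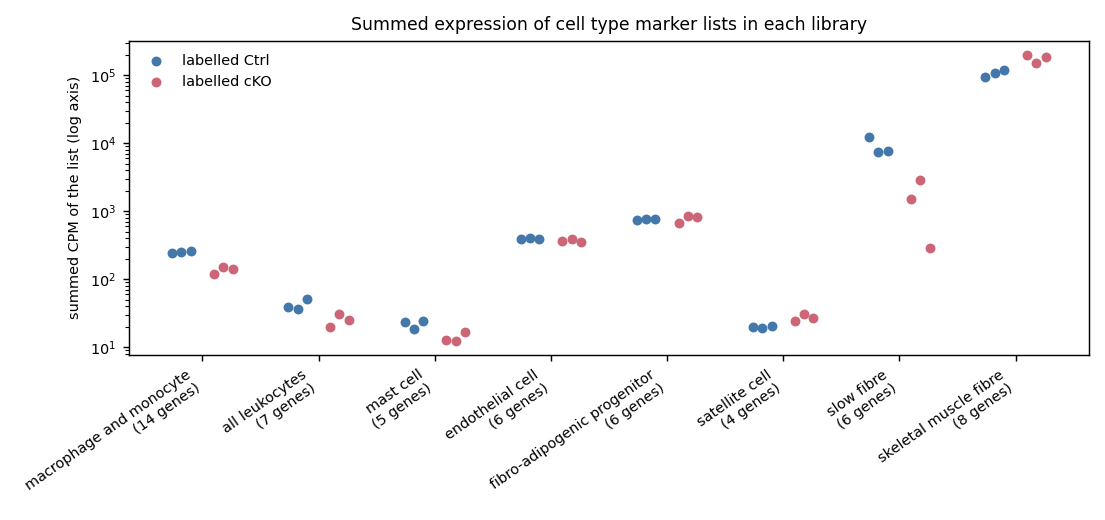
Summed CPM (vertical log axis) of the marker lists in each of the 6 libraries, one point per library. The macrophage and monocyte list lies at 242 to 262 CPM in libraries labelled Ctrl and at 120 to 153 CPM in libraries labelled cKO, whereas the endothelial list lies at 390 to 403 CPM and 350 to 389 CPM.

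Among the interleukin genes, 7 of 38 had enough counts, of which Il17d was higher in libraries labelled Ctrl, Il12a was higher in libraries labelled cKO and 5 did not pass. The share that passed, 28.6% of the 7, was near the 24.4% of all genes tested. Il17d encodes a cytokine of the IL-17 family that is known to be expressed in skeletal muscle, and it had the smallest p of the 57 genes. The counts of Il17d were 365, 309 and 206 in libraries labelled Ctrl and 70, 102 and 91 in libraries labelled cKO. The groups were far apart at 9.32, 7.46 and 5.63 CPM against 1.98, 2.65 and 2.07 CPM, a 3.35-fold difference (log2 fold change -1.74, standard error 0.22, edgeR adjusted p = 0.00369) that passed with each library left out, from -1.91 to -1.55. Of the receptor genes of the family, Il17re passed in the other direction. Il17ra, the chain shared by most of its receptors, did not pass, with a log2 fold change of -0.32 (standard error 0.16, edgeR adjusted p = 0.182), nor did Il17rd, with one of -0.25 (standard error 0.12, edgeR adjusted p = 0.168). Il17ra and Il17rd both passed where total counts replaced TMM factors, with -0.58 for Il17ra and -0.51 for Il17rd.

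Il12a encodes the p35 subunit that IL-12 and IL-35 share. It had 71, 78 and 111 counts in libraries labelled Ctrl, compared with 195, 220 and 184 counts in libraries labelled cKO, or 1.81, 1.88 and 3.04 CPM against 5.50, 5.71 and 4.18 CPM. Every library labelled cKO lay above those labelled Ctrl, and the difference was 2.29-fold (log2 fold change 1.19, standard error 0.24, edgeR adjusted p = 0.0147). The call was lost by a small margin without Ctrl 1, Ctrl 2 or cKO 1 (edgeR adjusted p = 0.0561, 0.0540 and 0.0501). Il12rb2, the signalling chain of the IL-12 receptor, was also higher in libraries labelled cKO, with 4.62, 5.09 and 5.28 CPM against 7.68, 6.36 and 6.77 CPM (log2 fold change 0.47, standard error 0.12, edgeR adjusted p = 0.0335). That call is less firm, because 40.0% of the exon bases of Il12rb2 are shared with Serbp1 on the other strand, and it was lost with total counts (log2 fold change 0.21, edgeR adjusted p = 0.201) and without Ctrl 1, Ctrl 2, cKO 1 or cKO 3 (edgeR adjusted p from 0.0838 to 0.11). Il12rb1, the partner chain, was under the count limit.

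Il15, Il34, Il33, Il16 and Il18 did not pass. Il15, a cytokine of muscle that sustains natural killer and memory T cells, had 7.97, 7.65 and 9.71 CPM in libraries labelled Ctrl and 6.77, 7.56 and 7.25 CPM in libraries labelled cKO. These values did not overlap, but the log2 fold change of -0.23 was small (standard error 0.13, edgeR adjusted p = 0.219), and with total counts it was -0.48 and passed (edgeR adjusted p = 0.0406). Il34, which like colony-stimulating factor 1 binds the macrophage receptor CSF1R, had 7.61, 8.33 and 4.84 CPM against 7.54, 5.30 and 7.25 CPM (log2 fold change -0.05, standard error 0.23, edgeR adjusted p = 0.892). Of the antagonists and decoys, Il18bp, which neutralises IL-18, had 1.94, 2.12 and 2.95 CPM against 1.81, 1.38 and 1.25 CPM. Its groups did not overlap and it did not pass (log2 fold change -0.66, standard error 0.24, edgeR adjusted p = 0.0862) except with total counts (-0.92, edgeR adjusted p = 0.0245). Il1r2, the IL-1 decoy receptor, had a log2 fold change of -0.03 (standard error 0.38, edgeR adjusted p = 0.964), which was 0.35 without Ctrl 3.

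Interleukin receptor genes were the best represented, with 24 of 38 above the count limit, of which 5 were higher in libraries labelled Ctrl, 2 were higher in libraries labelled cKO and 17 did not pass. The 7 that passed are 29.2% of the 24, near the 24.4% of all genes. The first group held Il13ra1, Il2rg and Il4ra. Il4ra binds IL-4 in both receptor types, where it pairs with the common gamma chain (Il2rg, which several other interleukin receptors also use) on leukocytes and with Il13ra1 on other cells and macrophages. Il13ra1 had 7.12, 5.74 and 9.16 CPM in libraries labelled Ctrl and 4.01, 4.36 and 4.29 CPM in libraries labelled cKO (log2 fold change -0.80, standard error 0.18, edgeR adjusted p = 0.0212). Il2rg had 2.22, 2.90 and 3.61 CPM against 1.30, 1.84 and 1.70 CPM (log2 fold change -0.84, standard error 0.24, edgeR adjusted p = 0.0413). Il4ra had 14.9, 11.1 and 15.2 CPM against 10.3, 9.95 and 9.50 CPM (log2 fold change -0.47, standard error 0.14, edgeR adjusted p = 0.0449). In each of the 3 genes the groups did not overlap. Each of these calls was lost in some of the fits with 1 library left out. Il13ra1 was lost without Ctrl 1, cKO 1 or cKO 3 (edgeR adjusted p from 0.0634 to 0.0669), Il2rg without Ctrl 2, Ctrl 3, cKO 1 or cKO 3 (0.0967 to 0.109), and Il4ra without Ctrl 1, Ctrl 3, cKO 1, cKO 2 or cKO 3 (0.0703 to 0.145). Il4ra was also lost by a small margin where no filter on low counts was used (edgeR adjusted p = 0.0501). Il2rg shares 30.5% of its exon bases with Gm20489 on the same strand. The ligand genes Il4 and Il13 were under the count limit.

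Il20rb, the chain shared by the receptors for IL-19, IL-20 and IL-24, was 1.92-fold higher in libraries labelled Ctrl, with 3.88, 4.87 and 4.59 CPM against 1.83, 2.52 and 2.59 CPM. Its groups did not overlap (log2 fold change -0.94, standard error 0.19, edgeR adjusted p = 0.0135), and the call was lost without Ctrl 2 (edgeR adjusted p = 0.0518). Il11ra1, the binding chain for IL-11, had 66.8, 59.0 and 45.7 CPM in libraries labelled Ctrl and 38.7, 42.4 and 32.4 CPM in libraries labelled cKO (log2 fold change -0.60, standard error 0.16, edgeR adjusted p = 0.0336). The lowest library labelled Ctrl was close to the highest labelled cKO, and the call was lost without Ctrl 1, Ctrl 2, cKO 1 or cKO 3 (edgeR adjusted p from 0.0924 to 0.107). Il11ra1 has a closely related copy, Il11ra2, which had no count in any library, so its level is uncertain to the extent that reads from the pair were dropped or assigned to one of them. The IL-6 receptor gene Il6ra, picked after its values were seen, had 15.5, 14.99 and 9.35 CPM against 10.3, 4.86 and 7.16 CPM. Those groups overlapped through Ctrl 3 (log2 fold change -0.84, standard error 0.30, edgeR adjusted p = 0.0801), and Il6ra passed without that library (-1.03, edgeR adjusted p = 0.0463), with total counts (-1.11, edgeR adjusted p = 0.0214) and in DESeq2 (adjusted p = 0.0261).

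Il17re, which together with Il17ra forms the receptor for IL-17C, had the largest difference towards libraries labelled cKO. It had 5, 12 and 12 counts in libraries labelled Ctrl, compared with 21, 39 and 54 counts in libraries labelled cKO. Il17re thus reached the count limit through libraries labelled cKO, since Ctrl 1 lay under 10 counts. The groups did not overlap at 0.128, 0.290 and 0.328 CPM against 0.593, 1.01 and 1.23 CPM (log2 fold change 1.92, standard error 0.43, edgeR adjusted p = 0.0193). The call was lost without Ctrl 1, Ctrl 2 or cKO 3 (edgeR adjusted p = 0.0619, 0.0570 and 0.0719). Il4i1 meets the naming rule although it encodes a secreted amino acid oxidase and no interleukin. It was higher in each library labelled cKO (0.593, 0.623 and 0.4999 CPM) than in those labelled Ctrl (0.306, 0.338 and 0.383 CPM) but did not pass (log2 fold change 0.73, standard error 0.26, edgeR adjusted p = 0.0836), and 83.9% of its exon bases are shared with Tbc1d17 on the other strand.

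**Figure D3:**
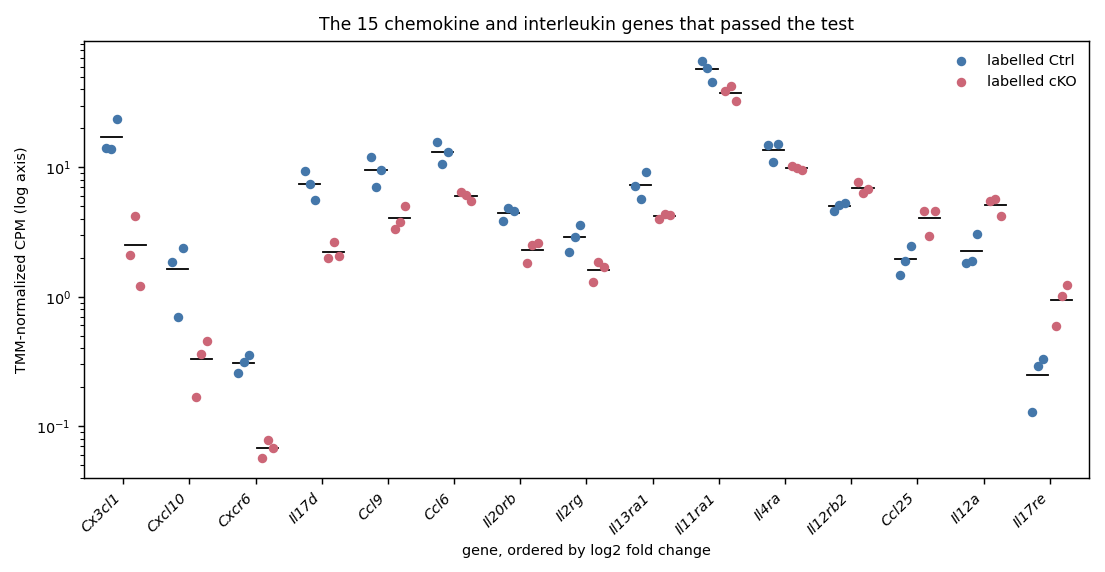
CPM after TMM scaling (vertical log axis) of the 15 genes that passed an adjusted p of 0.05, ordered by log2 fold change, with one point per library and a bar at the mean of the 3 libraries of each labelled group. In each of the 15 genes the 3 points of one group lie on one side of the other 3, from Cx3cl1 (17.2 against 2.50 CPM) to Il17re (0.248 against 0.944 CPM).

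With 1 library left out, 5.46% to 12.5% of all genes were called higher in libraries labelled Ctrl and 5.33% to 12.3% in libraries labelled cKO, against 11.8% and 12.6% with all libraries. Of the 15 genes, 5 (Cx3cl1, Cxcr6, Il17d, Ccl9 and Ccl6) passed in each alternative fit that tested them, the 6 fits with 1 library left out among them. These were 14 fits for each gene but Cxcr6, which had 13, because the filter of 10 counts in every library removed it. Cxcr6 met the count limit through libraries labelled Ctrl alone, so its 13 fits are not independent of that limit. The other 10 were lost in at least 1 of the 6 fits with 1 library left out, all 4 genes higher in libraries labelled cKO among them. No log2 fold change of the 15 changed sign in these fits, but the sizes moved. Il12a ranged from 1.06 to 1.47 (1.19 with all libraries) and Ccl25 from 0.90 to 1.26 (1.06 with all). Il2rg ranged from -1.004 to -0.659 (-0.84 with all), Cxcl10 from -2.65 to -1.92 (-2.29) and Il4ra from -0.60 to -0.39 (-0.47).

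**Figure D4:**
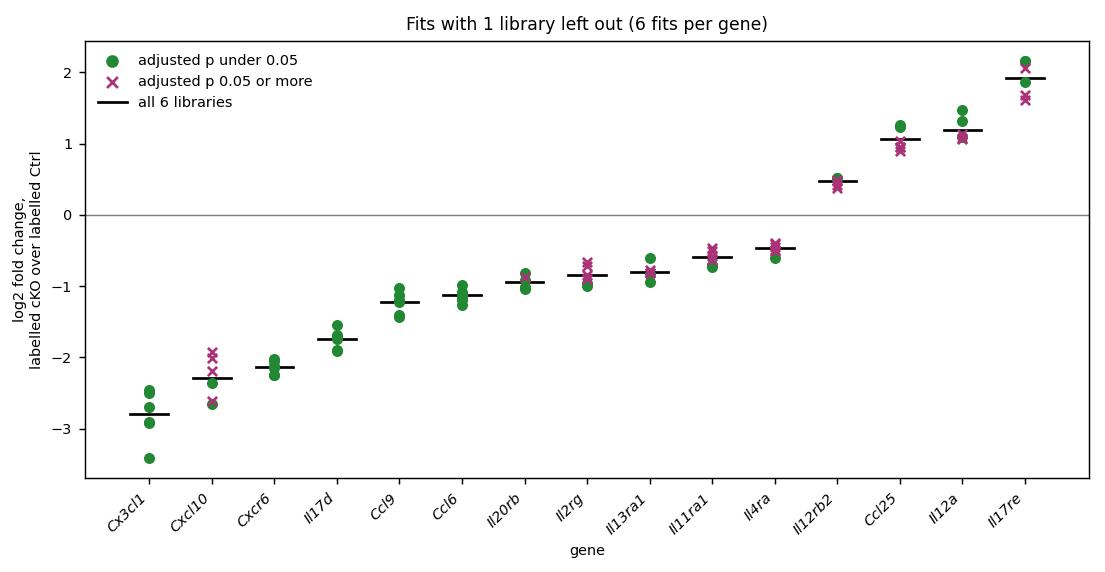
Log2 fold change (vertical axis, labelled cKO over labelled Ctrl) of the 15 genes in the 6 fits that each left out 1 library. Circles passed an adjusted p of 0.05, crosses did not, and the black bar is the value with all 6 libraries. Cx3cl1, Cxcr6, Il17d, Ccl9 and Ccl6 have circles only.

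The genes with few counts add no single-gene statement. The 59 genes with counts below the limit had a median of 7 counts over all 6 libraries together, and 31 of them had at most 3 counts in each library. Il1b, Il6, Il1rn, Il2rb and Cxcr3 belong here, so for these genes a difference was not detectable at this depth. The counts of the 59 genes summed to 149, 126 and 218 in libraries labelled Ctrl and to 93, 131 and 224 in libraries labelled cKO, which overlapped. The 23 genes without any count included Il17a, Ccl20, Ccl19, Ccl21a, Ccl21b, Ccl21c, Ccl27b and Il11ra2. Ccl21a, Ccl21b and Ccl21c are near-identical copies, as are Ccl27a and Ccl27b and Il11ra1 and Il11ra2, whose reads the counting could have split or dropped, so a listing at 0 is not evidence that such a gene is silent.

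Genes that work with the family were taken from 4 lists of chemokine and cytokine genes outside the naming rule, JAK, STAT and SOCS genes, adaptors of the IL-1 and IL-17 receptors, and signalling genes behind chemokine receptors. Of the 85 genes tested, 17 were higher in libraries labelled Ctrl and 10 in libraries labelled cKO, which stands beside 11.8% and 12.6% of all genes, and their median log2 fold change was -0.14. With total counts these were 36 and 4, beside 28.7% and 4.75% of all genes. With 1 library left out they were 6 and 4 without Ctrl 1, 9 and 5 without Ctrl 2, 6 and 6 without cKO 1 and 7 and 4 without cKO 3, fits in which calls over all genes were also fewer. In the first list 8 of 28 were higher in libraries labelled Ctrl and 2 in libraries labelled cKO. Ackr4 and Ackr2 encode scavenger receptors that remove chemokines without signalling. Ackr4 had 2.29 ± 0.878 CPM (SD, n = 3) in libraries labelled Ctrl, against 0.239 ± 0.0900 CPM (SD, n = 3) in libraries labelled cKO (log2 fold change -3.22, standard error 0.41, edgeR adjusted p = 0.00385), and Ackr2 had a log2 fold change of -1.10 (standard error 0.26, edgeR adjusted p = 0.0252). Ackr1 (-0.12) and Ackr3 (-0.32), which belong to the same class, did not pass. The genes higher in libraries labelled cKO were Ccrl2, which binds the attractant chemerin without signalling (log2 fold change 1.06, standard error 0.28, edgeR adjusted p = 0.0328), and the interferon gamma receptor chain Ifngr2 (0.41, standard error 0.07, edgeR adjusted p = 0.00918). Csf1r, the receptor for Il34 and a macrophage marker, had one of -0.64 (standard error 0.13, edgeR adjusted p = 0.0157).

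Of the 22 JAK, STAT and SOCS genes, 6 were higher in libraries labelled Ctrl (11.8% of all genes) and 3 in libraries labelled cKO (12.6% of all genes). Jak3, Tyk2, Stat3 and Stat6 were among the first 6, with log2 fold changes from -0.80 for Jak3 to -0.39 for Stat6. Jak3, the kinase bound to the common gamma chain, had 17.9 ± 0.855 CPM (SD, n = 3) against 10.3 ± 1.77 CPM (SD, n = 3), with an edgeR adjusted p of 0.00838, and Stat6, which signals for IL-4 and IL-13, had 37.9 ± 1.15 CPM against 29.0 ± 0.398 CPM (SD, n = 3 each). Those higher in libraries labelled cKO were Pias2, Socs2 and Stat5b, and Stat5b had 153 ± 40.0 CPM against 335 ± 10.4 CPM (SD, n = 3 each; log2 fold change 1.13, standard error 0.18, edgeR adjusted p = 0.00660). The members of this list thus went in both directions. Among 18 adaptor genes, 2 (Irak1 and Irak3) were higher in libraries labelled Ctrl and 4 (Tab2, Tirap, Tab3 and Traf6) in libraries labelled cKO, beside the same shares of all genes, while among 17 genes behind chemokine receptors Rac2 was higher in libraries labelled Ctrl and Adrbk2 in libraries labelled cKO.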

How the data were processed

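Per the submitters' processing notes, Trimmomatic 0.39, HISAT2 2.1.0 (genome mm10) and featureCounts 1.6.2 were used to make the gene counts. The authors deposited 1 table of raw counts per library, listed by gene symbol, whose annotation and strand setting are not given in the sources used here. Conditions follow the sample labels. The labelled groups were compared with edgeR 4.0.16 under R 4.3.3 (TMM, filterByExpr, glmQLFit, glmQLFTest, Benjamini-Hochberg over all 14180 genes tested), and DESeq2 1.42.0 was an alternative. Standard errors were derived from the F statistic. Both tools were tested on simulated data with known changes. Positions, exon lengths and overlaps came from GENCODE M21 on GRCm38, in which 138 of the 139 genes were found by symbol. Named are the genes that passed, the 2 highest per length in each role class, partners of genes that passed, and the few said to be picked after their values were seen. The genes, lists and motifs were chosen with earlier results of these data known. Alternatives were other scalings, filters, DESeq2, a robust fit, a replicate block and each library left out. Single-gene results for some genes are not reported here.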

Additional observations from a re-analysis of the deposited data

How the results depend on the processing

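The sign of each of the 15 called genes was the same in each fit that tested it (the filter of 10 counts in every library removed Cxcr6, Cxcl10 and Il17re), and values of the named genes kept their side of the threshold in most. When libraries were scaled by their totals, 23 genes (11 with a fold over 2) were higher in libraries labelled Ctrl, 1 gene with a fold over 2 was higher in libraries labelled cKO, the median was -0.58, and the lists of partner genes had 36 and 4 calls, beside 28.7% and 4.75% of all genes (7.21% and 1.11% with a fold over 2). The median was -0.18 with no filter and -0.21 with DESeq2, fits that include 116 genes of the family. Labels share mouse numbers, but same-numbered libraries did not deviate together (correlations of 0.084, -0.215 and -0.002), so the numbers were not taken as pairs. With the replicate block 10 genes were higher in libraries labelled Ctrl and 1 in libraries labelled cKO (1 with a fold over 2), Il12a, Ccl25, Il12rb2, Il2rg and Il4ra were lost, Ccr2 passed, and the partner lists had 9 and 5 calls, beside 6.85% and 6.54% of all genes (3.16% and 1.66% with a fold over 2). With 1 library left out the counts ranged from 6 to 11 and from 0 to 5, and with a fold over 2 from 5 to 7 and from 0 to 4. For the partner lists they ranged from 6 to 14 and from 4 to 12. Beside these stood 5.46% to 12.5% and 5.33% to 12.3% of all genes (2.75% to 4.75% and 1.20% to 2.69% with a fold over 2). The part of fewer libraries in these counts was not tested. In the same fits the median ranged from -0.38 to -0.26 and Ppapdc3 from 4.10 to 4.31. Non-overlapping genes ranged from 23 to 27 and from 6 to 8 (24.9% to 30.3% and 23.4% to 27.4% of all genes). Signs turned for Cxcr4 (-0.26 with total counts, -0.0043 with 10 counts in every library, -0.089 without Ctrl 2, -0.0019 without cKO 1, -0.072 without cKO 3), Il34 (0.023 without Ctrl 1, 0.11 without Ctrl 2, 0.074 without cKO 2), Cx3cr1 (0.26 without Ctrl 3, 0.046 without cKO 3), Il1r2 (0.012 with the block, 0.35 without Ctrl 3), Cxcl11 (0.074 without cKO 1) and Il6st (0.011 without Ctrl 3). Over the fits with 1 library left out these ranged from -0.089 to 0.11 for Cxcr4, -0.25 to 0.11 for Il34, -0.73 to 0.26 for Cx3cr1, -0.32 to 0.35 for Il1r2, -0.72 to 0.074 for Cxcl11 and -0.15 to 0.011 for Il6st, none of which passed in any fit. The cause was not tested. The 59 genes under the count limit had too few counts for single-gene statements, and groups of 3 are too small for a test of single libraries.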
